A study of Mus musculus with 6 samples.

Results

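The Hox genes encode homeodomain transcription factors that give cells their position along the head-to-tail axis of the embryo. In the mouse they lie in 4 clusters, Hoxa on chromosome 6, Hoxb on chromosome 11, Hoxc on chromosome 15 and Hoxd on chromosome 2. Within a cluster all the genes point the same way and are numbered by paralog group, so that Hoxa4, Hoxb4, Hoxc4 and Hoxd4 are copies of one ancestral gene. Low-numbered genes lie at the 3′ end of a cluster, are switched on first and pattern the hindbrain, and high-numbered genes lie at the 5′ end, are switched on later and pattern the trunk, tail, limbs and genitalia. In embryonic stem cells the clusters are held silent by Polycomb complexes, and retinoic acid opens them from the 3′ end. The members described here are the rows of the deposited expression table whose symbol is Hox, a cluster letter and a number. The rule found 39 genes of 18312 in the table. The 38 described, over which all sums and medians were taken, are 10 in Hoxa, 10 in Hoxb, 9 in Hoxc and 9 in Hoxd, in 13 paralog groups.

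The series was made to find the mRNA targets of Brf1 (gene Zfp36l1) and Brf2 (gene Zfp36l2), ZFP36-family proteins that recognise AU-rich elements and promote mRNA decay. All 6 libraries came from 1 line, the wild-type mouse embryonic stem cells E14 (129/Ola), grown in DMEM with 15% FBS and 1000 U/ml LIF. They are 2 libraries of total RNA with no antibody, 2 of RNA precipitated from cytoplasmic extract with an anti-Brf1/2 antibody, and 2 of RNA precipitated with rabbit IgG as the control. The single table has 22625281 counts and no column that names a library, so its values belong to no group. No comparison between groups could be made, there are no replicates, and a level here is neither a measure of binding nor, with certainty, of expression in the cells.

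Levels are in FPKM, counts scaled to the table's effective length in kilobases and to its total count. Brackets hold the exact 95% Poisson interval of the count on that scale. Intervals and the limits given for counts of 0 cover counting error only. The cell type on the labels was checked against 6 embryonic stem cell markers, which ran from 40.6 FPKM for Esrrb to 605 for Pou5f1.

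The 38 Hox genes were low as a set, and the highest of them were Hoxb1 and the genes at the 5′ ends of Hoxc and Hoxd. Of the 38, 0 reached 1 FPKM (1, Hoxb1 at 1.11, when the model length replaced the effective length), where 56.0% of all genes in the table did. At 0.5 FPKM 1 of the 38 passed, against 61.4% of all genes, and at 5 FPKM 0 did, against 38.3%. The median Hox gene had 4 counts and 0.0853 FPKM, and the median over all genes was 162 counts and 1.94 FPKM. At least 10 counts were found for 13 Hox genes (34.2%, against 70.6% of all genes), 13 had 1 to 9 counts, and 12 had none (31.6%, against 21.0% of all genes). Together the 38 genes held 303 counts, 0.00134% of the total (exact binomial 95% interval 0.00119 to 0.00150). In bulk RNA, expression in few cells and little RNA in every cell cannot be told apart.

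Hoxb1 had the highest level of the 38. It gives a hindbrain segment, the rhombomere that forms facial motor neurons, its identity, and had 52 counts and 0.778 FPKM (0.581 to 1.02), so that 42.1% of all genes in the table were lower. It held 17.2% of the 303 counts (exact binomial 95% interval 13.1 to 21.9). Its paralog Hoxd1 was lower, at 13 counts and 0.254 FPKM (0.135 to 0.435), and the intervals of the pair do not overlap.

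The genes ranked 2 to 4 were of group 13, at the opposite, 5′ end of the clusters, and the remaining paralog of that group ranked 12. Hoxc13, needed for hair and nails, had 29 counts and 0.480 FPKM (0.322 to 0.690), and its interval overlaps that of Hoxb1 (it does not on the model length, where it ends at 0.757 and that of Hoxb1 begins at 0.826). Hoxd13, needed for digits, had 32 counts and 0.396 FPKM (0.271 to 0.559). Hoxa13, which acts with Hoxd13 in the hand plate and the genital tubercle, had 13 counts and 0.266 FPKM (0.142 to 0.455), and Hoxb13, known from the tail and prostate, had 8 counts and 0.206 FPKM (0.0887 to 0.405). The intervals of these 4 paralogs overlap each other, which is not a test of their differences, and none was made.

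**Figure D1:**
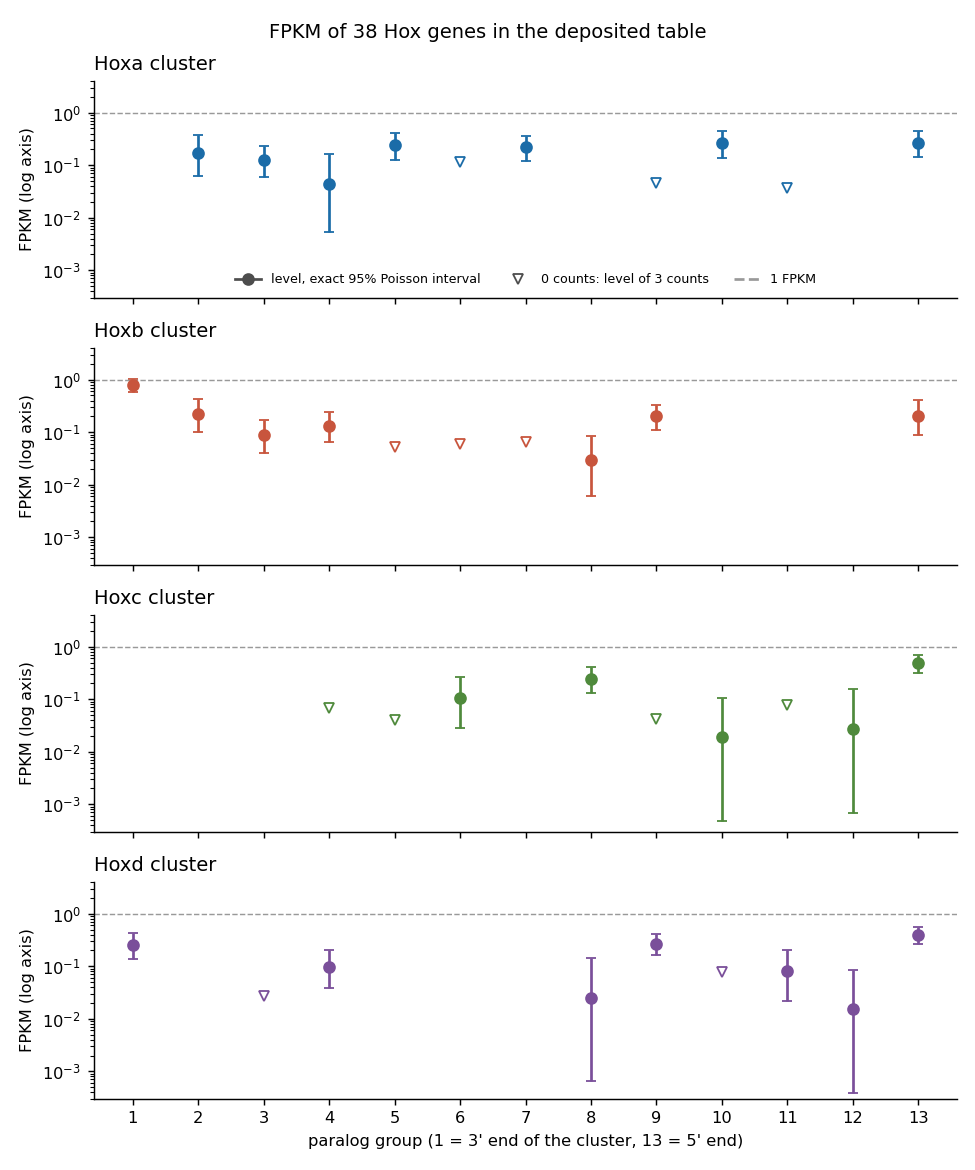
FPKM on a log axis (vertical) for 38 Hox genes against its paralog group (horizontal), 1 panel per cluster. Filled points carry exact 95% Poisson intervals, open triangles mark genes with 0 counts at the level that 3 counts would give, and the dashed line is 1 FPKM. Hoxb1 at 0.778 FPKM is the highest point, and the points of group 13 stand above those of group 12 at 0.0276 and 0.0151 FPKM. The group 12 genes have 1 count each, and the interval of Hoxc12 overlaps those of Hoxa13 and Hoxb13.

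Sequence was set beside the levels for the highest genes. For Hoxb1, the promoter in RefSeq (assembly GRCm38.p6) holds a bipartite motif of the kind bound by Pbx and Hox proteins together, in the upstream stretch known for Hoxb1 autoregulation. The 120 bases shown are chr11:96365538-96365657 on the plus strand, ending 101 bases before the RefSeq start, and capitals mark the motif.

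Hoxb1 promoter: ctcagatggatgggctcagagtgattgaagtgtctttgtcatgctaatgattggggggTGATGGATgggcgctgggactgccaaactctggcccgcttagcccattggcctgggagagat

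Windows of 300 bases around the start, searched on both strands, were at hand for 22 Hox genes (24 windows). TGATGGAT was found in 1 of the 24, that of Hoxb1, and in 0.657% of the 16588 windows of all genes in the table. Since it lies in a stretch already known for Hoxb1, its match there is not an independent result. The looser form TGATNNAT, which includes it, was found in 4 of the 24 Hox windows, those of Hoxa2, Hoxb1, Hoxb8 and Hoxd11 (the second of its 2 windows), and in 7.04% of all windows. Hoxa2 stood at 0.170 FPKM, Hoxb8 at 0.0294 and Hoxd11 at 0.0808, so the genes with a match ran from 0.0294 to 0.778 FPKM. A match describes these letters and is not a binding site.

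Pooled levels were taken over the paralog groups. These are more numerous and smaller pools than the clusters, which by itself widens their range, so the ranges of groups and clusters are not compared. Summing the counts of a group over its summed effective length gave a pooled level of 0.551 FPKM (0.425 to 0.702) for group 1 (Hoxb1 and Hoxd1) and 0.358 FPKM (0.285 to 0.445) for group 13, the highest pair of the 13 groups, with intervals that overlap. Group 2 followed at 0.197 FPKM (0.111 to 0.326), and its interval overlaps that of group 13. Groups 7 and 9 had 0.128 FPKM (0.0700 to 0.215) and 0.122 FPKM (0.0847 to 0.169). Groups 10, 8, 4, 5 and 3 lay between 0.0951 and 0.0657 FPKM, with intervals that all overlap. Group 6, at 0.0348 FPKM (0.00948 to 0.0891), group 11, at 0.0237 FPKM (0.00645 to 0.0606), and group 12, at 0.0195 FPKM (0.00236 to 0.0705), were the lowest. Groups 11 and 12 are the direct neighbours of group 13, and their intervals lie below its own, as do those of groups 3 to 10. The models of Hoxc11, Hoxd11 and Hoxc12 cover only the coding sequence, while no model of group 13 does. The part of this in the low levels of groups 11 and 12 was not tested.

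Both ends of the clusters were then set against the genes between them, a division made after the levels were seen and given as a description. All 6 genes described in groups 1 and 13 had counts, and 5 of the 6 had at least 10. Of the 32 genes in groups 2 to 12, 12 had no count and 8 had at least 10. These 32 include Hoxa6, Hoxc11, Hoxc12 and Hoxd11, whose models cover only the coding sequence. No gene of groups 1 and 13 has such a model, and its part in the contrast was not tested. Over all genes in the table, 70.6% had at least 10 counts and 21.0% had none. Pooled, these 32 had 0.0816 FPKM (0.0693 to 0.0955), and the highest of them, Hoxd9, had 0.264 FPKM. Without Hoxc13, the rest of group 13 had 0.314 FPKM (0.235 to 0.411), still above the 32. Group 1 leaned on Hoxb1, since Hoxd1 alone, at 0.254 FPKM, was no higher than Hoxd9.

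**Figure D2:**
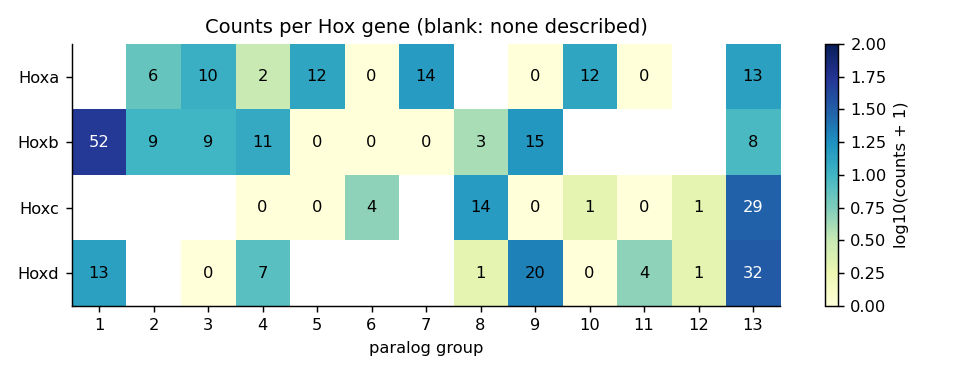
Counts for 38 Hox genes, with clusters as rows and paralog groups 1 to 13 as columns; colour is log10(counts + 1) and blank cells are positions where no gene is described. The largest count, 52 for Hoxb1, is in the first column, and the last column holds 8 to 32 counts with no 0.

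By class, the anterior genes (groups 1 to 3, 7 genes) had a median of 0.170 FPKM, the central genes (groups 4 to 8, 15 genes) 0.0294 and the posterior genes (groups 9 to 13, 16 genes) 0.0542. The pooled levels were 0.205 FPKM (0.166 to 0.249) for the anterior class, 0.0799 (0.0621 to 0.101) for the central and 0.147 (0.123 to 0.174) for the posterior class. The intervals of the anterior and posterior classes overlap, and that of the central class lies below both. Without Hoxb1, the anterior class had 0.113 FPKM (0.0829 to 0.150), under the posterior value, and its interval then overlaps that of the central class too. The posterior median depends on which genes are counted. It was 0.200 FPKM, above the anterior 0.170, without the models that cover only the coding sequence (Hoxc11, Hoxc12 and Hoxd11 in that class), 0.114 on the model length and 0.0294 when group 8 was moved into the class. The order of the class medians is therefore not settled. Genes of a class are not replicates, and no test between classes was made.

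Among the clusters, Hoxb had the highest pooled level, 0.162 FPKM (0.133 to 0.196). Hoxd followed at 0.134 FPKM (0.106 to 0.167), Hoxa at 0.127 (0.0992 to 0.161) and Hoxc at 0.103 (0.0765 to 0.137). The intervals of all 4 overlap each other. Overlap of intervals is not a test of a difference, and no test between clusters was made. In 3 of them 1 gene held 41.0% or more of the counts. Hoxb1 held 48.6% of the 107 Hoxb counts (exact binomial 95% interval 38.8 to 58.5), Hoxc13 held 59.2% of the 49 Hoxc counts (44.2 to 73.0) and Hoxd13 held 41.0% of the 78 Hoxd counts (30.01 to 52.7). In Hoxa the counts were spread more evenly, and Hoxa13, the highest by FPKM, held 18.8% of the 69 counts described (10.4 to 30.1).

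Without the highest gene of each cluster the order changed. Hoxa then had 0.114 FPKM (0.0859 to 0.148), Hoxb 0.0926 (0.0697 to 0.121), Hoxd 0.0917 (0.0671 to 0.122) and Hoxc 0.0483 (0.0295 to 0.0747). The genes left out were chosen by their level and held unequal shares of their clusters, so these values describe how far each cluster leaned on its highest gene and do not compare the clusters. The medians per gene were 0.147 FPKM in Hoxa, 0.111 in Hoxb, 0.0808 in Hoxd and 0.0192 in Hoxc. Hoxc has no gene in groups 1 to 3, so the clusters do not hold the same positions.

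**Figure D3:**
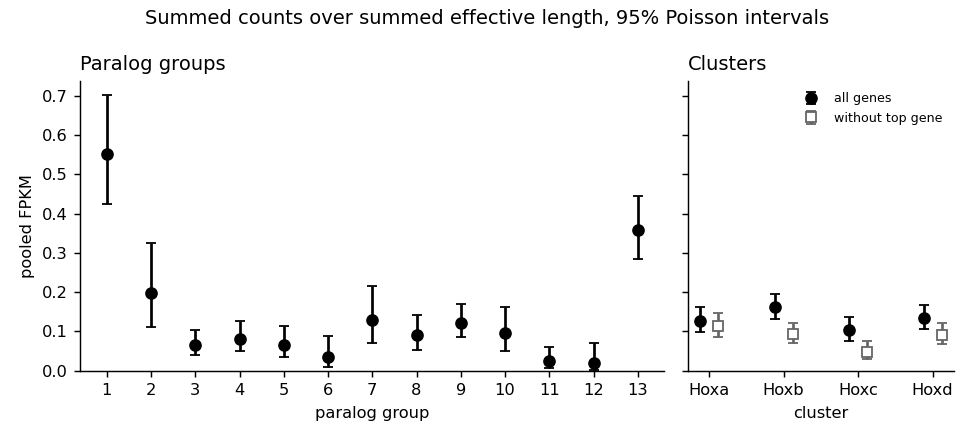
Pooled FPKM (summed counts over summed effective length) with exact 95% Poisson intervals, for the 13 paralog groups on the left and the 4 clusters on the right. Groups 1 (0.551) and 13 (0.358) stand above the rest, and open squares show each cluster falling when its highest gene is left out, from 0.162 to 0.0926 FPKM for Hoxb.

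Within Hoxa, 6 genes before Hoxa13 had low counts and 3 had none. Hoxa2, which sets the identity of the second pharyngeal arch, had 6 counts (0.170 FPKM, 0.0622 to 0.369). Hoxa3, needed for the thymus and parathyroid, had 10 counts (0.125 FPKM, 0.0600 to 0.230), and Hoxa4 had 2 counts (0.0446 FPKM, 0.00540 to 0.161). Further along, Hoxa5, known from lung development, had 12 counts (0.238 FPKM, 0.123 to 0.416) and Hoxa7 had 14 counts (0.218 FPKM, 0.119 to 0.366). Hoxa10, which acts in the lumbar spine and the uterus, had 12 counts (0.262 FPKM, 0.135 to 0.457). The intervals of these 6 genes overlap each other. Hoxa6, Hoxa9 and Hoxa11 had no counts. The level of 3 counts would be 0.117 FPKM for Hoxa6, 0.0453 for Hoxa9 and 0.0375 for Hoxa11. The limits of Hoxa9, a leukaemia-associated gene, and Hoxa11, a forearm and kidney gene, are both under the lower bound of Hoxa10, 0.135 FPKM, which lies between them in the cluster.

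Within Hoxb, the 3′ genes were followed by a run without counts. Hoxb2, which acts beside Hoxb1 in the hindbrain, had 9 counts (0.222 FPKM, 0.101 to 0.421). Hoxb3 had 9 counts over a longer model (0.0897 FPKM, 0.0410 to 0.170), and Hoxb4, known for expanding blood stem cells, had 11 counts (0.133 FPKM, 0.0663 to 0.238). Hoxb5, Hoxb6 and Hoxb7, consecutive in the cluster, had no counts, and 3 counts would have given 0.0520, 0.0584 and 0.0663 FPKM. Hoxb8, a gene of the trunk and of blood-derived cells, had 3 counts (0.0294 FPKM, 0.00606 to 0.0858). Hoxb9 then had 15 counts (0.200 FPKM, 0.112 to 0.330), and the limits of Hoxb5, Hoxb6 and Hoxb7 are each under its lower bound.

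Hoxc was the sparsest cluster, with 4 of its 9 genes at 0 and 2 at a single count. Hoxc4, Hoxc5, Hoxc9 and Hoxc11 had no counts, with limits of 0.0670, 0.0403, 0.0425 and 0.0761 FPKM at 3 counts. Hoxc10 had 1 count (0.0192 FPKM, 0.000486 to 0.107) and Hoxc12 had 1 count (0.0276 FPKM, 0.000698 to 0.154). Hoxc6, a gene of the thoracic level, had 4 counts (0.105 FPKM, 0.0286 to 0.269). Between these, Hoxc8, which specifies motor neurons of the forelimb level, had 14 counts (0.241 FPKM, 0.132 to 0.405), and the limits of all 4 genes without counts lie under its lower bound. On the model length this does not hold for Hoxc11, whose limit becomes 0.145 FPKM where the lower bound of Hoxc8 becomes 0.143.

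In Hoxd, most counts lay in Hoxd1, Hoxd9 and Hoxd13. Hoxd9, a limb and lumbar gene, had 20 counts (0.264 FPKM, 0.161 to 0.407). Hoxd4 had 7 counts (0.0977 FPKM, 0.0393 to 0.201), and Hoxd11, which acts with Hoxa11 in the forearm, had 4 counts (0.0808 FPKM, 0.0220 to 0.207). Hoxd8 had 1 count (0.0253 FPKM, 0.000641 to 0.141) and Hoxd12 had 1 count (0.0151 FPKM, 0.000383 to 0.0842), the lowest level of any Hox gene with a count. Hoxd3 and Hoxd10 had no counts, with limits of 0.0275 and 0.0774 FPKM at 3 counts. The limit for Hoxd3 is the lowest of the 12 such limits, whose median is 0.0552 FPKM. Such limits move with the length used, and on the model length they ran from 0.0457 FPKM for Hoxd3 to 0.190 for Hoxa6. Paralogs of a group could differ in counts: in group 9 Hoxb9 and Hoxd9 had 15 and 20 counts while Hoxa9 and Hoxc9 had none.

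The gene models behind these levels differ in what they cover. The models of Hoxa6 (699 nt), Hoxc11 (915 nt), Hoxc12 (843 nt) and Hoxd11 (1011 nt) are exactly as long as the coding sequence in GENCODE M21, and these 4 genes had 0, 0, 1 and 4 counts. The other 34 models were longer than the coding sequence, by 155 nt for Hoxa13 up to 2088 nt for Hoxb3. Exons of 13 of the 38 Hox genes overlap those of another annotated gene, 7 on the same strand and 8 on the opposite strand. The share over all genes in the table was not computed. Of the 12 genes with no counts, 8 have no such overlap and 4 do, close to the share among all 38. Hoxd3 has the most, with 66.7% of its exon bases shared on its own strand with Hoxd4 and Gm28230. Hoxb1, Hoxc13 and Hoxd13 share no exon bases with another gene. Total and unique counts differ in 0 rows of the table. The part of model coverage or overlap in the levels was not tested.

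The AU-rich elements that ZFP36 proteins bind lie in 3′ untranslated regions (3′ UTRs), and the motif TATTTAT was sought on the transcript strand in the longest annotated 3′ UTR of each gene. Of the 37 Hox genes described with such a region, 18 had it (48.6%), against 29.2% of 17529 genes in the table. The shorter ATTTA was in 78.4% of Hox genes and 67.5% of all genes, and the longer TTATTTATT was in 8.11% and 8.06%, so the difference in shares seen for TATTTAT was not seen for the longer form. Among the 2637 genes with a 3′ UTR in the middle range of Hox lengths (753 to 1219 nt), 24.3% had TATTTAT. The 48.6% is over all 37 Hox genes and was not restricted to that range, so the shares are not matched for length. By cluster, 4 of 10 Hoxa, 6 of 10 Hoxb, 5 of 9 Hoxc and 3 of 8 Hoxd genes had the motif. The sites of Hoxb1, Hoxa13, Hoxc13 and Hoxd13 are shown because these are among the highest members with the motif, which Hoxb13 lacks, and those of Hoxb2 and Hoxd3 because they lie in the longer form TTATTTATT, as does site 2 of Hoxd13. Coordinates are GRCm38, each site lies in a 3′ UTR, and capitals mark TATTTAT.

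Hoxb1, chr11:96367984-96368012, plus strand: tcccaactcccTATTTATtacctccggaa

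Hoxa13, chr6:52258581-52258609, minus strand: aatcttgtaagTATTTATgtgaccattat

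Hoxc13, chr15:102927451-102927479, plus strand: cccgtcccgacTATTTATgtcacagcttt

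Hoxd13 site 1, chr2:74671190-74671218, plus strand: aaaatgttgcgTATTTATgggactgaaag

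Hoxd13 site 2, chr2:74671366-74671394, plus strand: gaagctgttttTATTTATtataaaacttt

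Hoxb2 site 1, chr11:96353913-96353941, plus strand: agattgtagatTATTTATtaaaattgttt

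Hoxd3 site 4, chr2:74748007-74748035, plus strand: ctgaaacatttTATTTATtcggaacctat

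The 18 genes had 30 sites between them. Hoxd3 had 4, Hoxa3, Hoxb3 and Hoxc6 had 3 each, Hoxb2, Hoxc4 and Hoxd13 had 2 each, and 11 genes had 1. The 2 last sites of Hoxc6 overlap.

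Paralog group 3 stood out among the sites, a feature noticed after the sites were listed. Hoxa3, Hoxb3 and Hoxd3 each had a run of 3 sites at nearly the same spacing. From the first to the second and the second to the third site, the steps were 45 and 20 nt in Hoxa3, 43 and 21 nt in Hoxb3, and 38 and 20 nt in Hoxd3. The last site of each run is shown to set the paralogs beside each other.

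Hoxa3 site 3, chr6:52169344-52169372, minus strand: ccatccgttcgTATTTATattaaagaaat

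Hoxb3 site 3, chr11:96347569-96347597, plus strand: cctacattatgTATTTATatgagggacaa

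Hoxd3 site 3, chr2:74747570-74747598, plus strand: tcgtcttaatgTATTTATgtgtatatttg

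Hoxc has no group 3 gene. The levels of the 3 paralogs were 0.125 FPKM for Hoxa3, 0.0897 for Hoxb3 and none for Hoxd3, so the shared run of sites went with counts of 10, 9 and 0.

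The 18 genes with the motif had a median of 0.166 FPKM. The 19 without it had 0.0192 FPKM, the level of Hoxc10 with 1 count (0.000486 to 0.107). Those 19 include Hoxa6, Hoxc11 and Hoxc12, whose models cover only the coding sequence, and the sets were not matched for length. Of the 18, 10 had at least 10 counts (70.6% of all genes did). Another 4 (Hoxb5, Hoxc4, Hoxc5 and Hoxd3) had none (21.0% of all genes). The site of Hoxa13 begins 306 nt past the stop codon, and the table's model has only 155 nt beyond the coding length, so that site is not in the model that gave the count. With no library named in the table, these values do not bear on binding, and no test was made.

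Hox proteins bind DNA with partners of the TALE homeodomain class. The list here was drawn from that class as a whole, and 10 of its 11 genes were in the table. Their median was 1.93 FPKM and 6 of 10 reached 1 FPKM, close to the median of 1.94 FPKM and the 56.0% over all genes. The co-repressor Tgif2 had 20.3 FPKM and Pbx2 had 16.2, and the lowest, Meis2, had 0.669 FPKM. The value of Meis2 was above that of every Hox gene described except Hoxb1, though its interval (0.521 to 0.847) overlaps that of Hoxc13. Tgif1 was not analysed here.

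The ParaHox and Cdx genes are sister genes of the Hox family, and the Cdx proteins activate central and posterior Hox genes. Of 5 measured, Cdx4 had 86 counts (2.27 FPKM) and Cdx2 95 counts (1.098 FPKM). Pdx1 had 3 counts, Gsx1 2 counts (0.0281 FPKM) and Gsx2 none, for which 3 counts would give 0.0672 FPKM.

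Of the 16 measured genes of retinoic acid signalling, 10 reached 1 FPKM and the median was 2.60, again near the 56.0% and 1.94 FPKM over all genes. The receptors Rarg and Rxrb were highest, at 20.2 and 16.3 FPKM. Rarb, itself a retinoic acid target, had 5 counts (0.0629 FPKM). The lowest was the retinol transporter Stra6 with 4 counts (0.0511 FPKM). Hoxb1, which also answers to retinoic acid, stood above Rarb, whose interval ends at 0.147 FPKM. Rarb was picked after its value was seen, and 10 of the 16 genes were above Hoxb1.

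All 17 measured chromatin regulators of the Hox clusters reached 1 FPKM (56.0% of all genes did), and their median was 22.7. The row Mll2 is among them, a symbol that has been used for either of a pair of genes (Kmt2b and Kmt2d). Its model is 19827 nt long. Which of the pair it counts was not checked here, so its place in this list is not certain. The Polycomb subunits Eed and Suz12 were highest, at 88.8 and 86.5 FPKM, and the lowest was Ring1, a Polycomb ubiquitin ligase, at 2.50. Each of the 17 was above Hoxb1.

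Genes beside the clusters were mostly higher than the genes inside them. Of 12 measured, 8 reached 1 FPKM (56.0% of all genes did), and the median was 8.33. Cbx5, near Hoxc, had 16267 counts (89.4 FPKM) and Hibadh, beyond the 5′ end of Hoxa, had 1564 counts (43.8 FPKM). Mtx2, beyond the 3′ end of Hoxd, had 32.0 FPKM, and Skap2, beyond the 3′ end of Hoxa, had 26.6. The other 4 were in the range of the Hox genes. They were the homeobox genes Evx1 and Evx2, at the 5′ ends of Hoxa and Hoxd, with 4 counts (0.0464 FPKM) and 0 counts (limit 0.0589 FPKM), and 2 genes without a homeobox, Skap1 with 5 counts (0.0732 FPKM) and Ttll6 with 71 counts (0.598 FPKM).

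**Figure D4:**
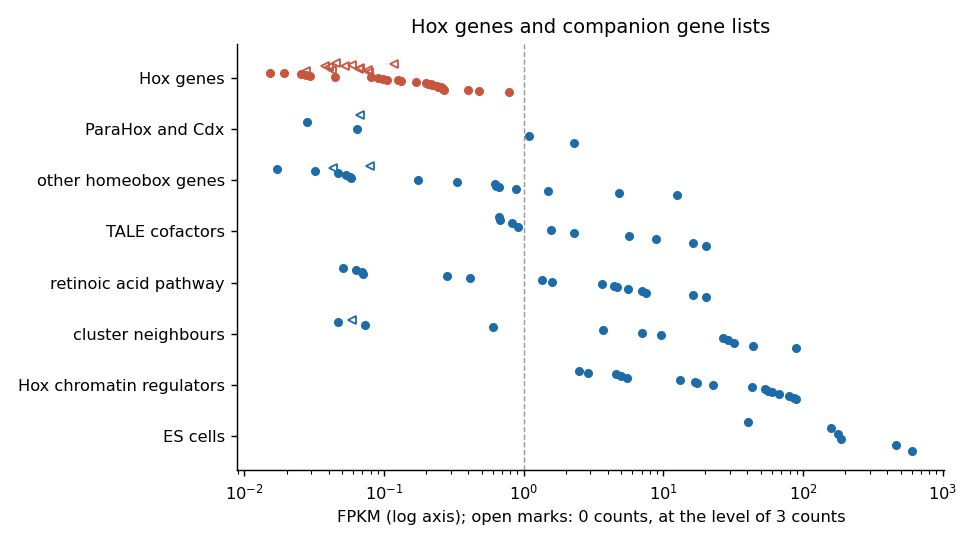
FPKM on a log axis (horizontal) for 38 Hox genes and 7 companion gene lists (rows), 1 point per gene; open marks are genes with 0 counts, drawn at the level of 3 counts, and the dashed line is 1 FPKM. The Hox genes lie left of the line, with Hoxb1 nearest to it, while all 17 chromatin regulators and all 6 embryonic stem cell markers lie right of it.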

How the data were processed

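The submitters' processing notes name eXpress 1.1.1, Bowtie 1.1.2, CASAVA 1.8.2 and mm9, with roles and settings not given in the sources used here. For each gene symbol, the authors deposited raw counts (total and unique), estimated counts, and FPKM with its bounds. An unnamed row holding the column sum was excluded. The table does not state whether strand was used. No column names a sample, so no group was assigned, no test between groups was made, and the design's values are descriptions.

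From the deposited counts, exact Poisson intervals, pooled levels (summed counts over summed effective length) and the level of 3 counts for genes at 0 were computed. The code for the intervals and the motif search was checked on simulated data. The simulated counts were drawn as Poisson counts, so the check does not show that the intervals suit the real counts. Promoters came from RefSeq (GRCm38.p6). Untranslated regions (at least 50 nt), coding lengths and overlaps came from GENCODE M21 (GRCm38). mm9 coordinates were not used. No protein sequences were at hand, so the homeodomains that the naming rule asked for are not shown. The value of 1 member found by the rule is not reported here and enters no sum, median or figure of the Hox genes; it remains in the values over all genes. Each other Hox gene is reported; from each companion list the highest 2, the lowest and genes at 0 are named, with others named after their values were seen (Rarb, Mtx2, Skap1, Skap2, Ttll6 and Mll2 among them). The members and lists were chosen with earlier results of these data known. Computations used matplotlib 3.10.9, scipy 1.17.1, pandas 2.3.3, numpy 2.4.6 and Python 3.11.15.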

Additional observations from a re-analysis of the deposited data

How the results depend on the processing

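No paired analysis was possible because no column is tied to a library, and no library could be left out for the same reason. When model length replaced effective length, 1 of the 38 Hox genes had at least 1 FPKM, since Hoxb1 rose to 1.11, and the summed FPKM went from 1.66 to 2.22 for Hoxb and from 1.13 to 1.64 for Hoxd. Of the 26 genes with counts, 24 rose, by up to 2.16 times (Hoxd11, to 0.175), and 23 stayed within their counting interval; Hoxb1, Hoxd9 (0.421) and Hoxd13 (0.570) did not. Groups 1 and 13 had the highest pooled levels with either length. With a threshold of 0.5 FPKM 1 Hox gene passed (61.4% of all genes), with 5 FPKM 0 did (38.3%), and 13 had at least 10 counts (70.6%). Keeping only genes with at least 10 counts raised the medians, a direction fixed by choosing genes on their counts. The median became 0.254 FPKM for all Hox genes, 0.361 for Hoxc, where 2 genes were left, and 0.264 for Hoxd. Without its highest gene, the summed FPKM was 1.06 for Hoxa (1.32 with it), 0.879 for Hoxb, 0.393 for Hoxc (0.874 with it) and 0.737 for Hoxd. The class medians have no error of their own here. The posterior median ran from 0.0294 FPKM with group 8 moved in to 0.200 without the 4 models of coding length only, an alternative chosen after seeing the data. The central median ran from 0.0223 FPKM without group 8 to 0.0501 on the model length, and the anterior one rose from 0.170 to 0.238 without group 3. ATTTA was found in 29 Hox 3′ untranslated regions (78.4%, against 67.5% of all genes) and TTATTTATT in 3 (8.11%, against 8.06%). Depth limits the members with few counts: 8 of the 26 genes with counts have a lower bound of 0 in the deposited intervals.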

Other observations

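Other homeobox genes of the germ layers, listed beside the Hox genes, spanned a wider range. Of 17 measured, 3 had at least 1 FPKM, against 56.0% of all genes. These 3 were the head and epiblast factor Otx2 at 12.4, Gbx2, a factor of the midbrain-hindbrain border, at 4.79, and En2, a midbrain factor, at 1.49. The median of the 17 was 0.175 FPKM. Dlx5 and Meox2 had no counts, with limits of 0.0788 and 0.0432 FPKM at 3 counts. The lowest with a count was the heart factor Nkx2-5, with 1 count (0.0172 FPKM).

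Markers of cells that express Hox genes were recorded too. Of 6 fibroblast markers 1 had at least 1 FPKM, where 56.0% of all genes did. It was Thy1 at 3.74, followed by Col1a1 at 0.902, with Prrx1 lowest at 0.194. Of 5 mesoderm and tail bud genes, T had 15.4 FPKM and Cdx2 1.098, Msgn1 and Tbx6 had 5 counts each, and Mesp1 had none. Of 4 neural progenitor markers, Nes had 20.1 FPKM, Pax6 2.38, Sox1 0.142 and Olig2 none. The part of such cells in the Hox levels was not tested.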
